A study of Mus musculus with 6 samples.

Results

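The genes described here encode the Golgi enzymes that build glycan chains, mostly on secreted and membrane proteins: the transferases that start, branch, extend, sialylate and fucosylate the chains, and the mannosidases that trim N-glycans. They were selected on their gene symbols, as protein-coding genes of the Galnt, Gcnt, C1galt1, B3gnt, B4galt, B3galt, St3gal, St6gal, St8sia, Fut, Mgat, Man1a and Man2a series. The rule took 88 gene models with 87 symbols, of 55414 gene identifiers, since St6galnac2 has a pair of overlapping models. The group was put forward with the knockout and control values of these libraries in view, and Gcnt1 was singled out for its lower level in the knockout. Its difference between the groups is therefore a description, and its p-value is no independent support.

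Messenger RNA was sequenced from 6 acinar cell preparations of the adult mouse pancreas, acinar cells being those that make and secrete digestive enzymes. The 3 control preparations had the genotype Pdx1Cre;Trip12+/+, with both copies of Trip12 intact. The 3 knockout preparations were Pdx1Cre;Trip12fl/fl, with both copies of Trip12 flanked by recombination sites. Both groups carry the Pdx1-driven Cre recombinase and no treatment is named in the labels. The Pdx1 promoter is active in the progenitors of the whole pancreas, so deletion is not restricted to acinar cells. TRIP12 is an E3 ubiquitin ligase, an enzyme that marks other proteins with ubiquitin, and the comparison asks how its loss changes gene expression in acinar cells. The labels number the preparations 1 to 3 in each group as biological replicates.

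Glycans are built stepwise as a protein passes through the Golgi, each enzyme using the product of the one before. GALNT enzymes start mucin-type O-glycans by adding N-acetylgalactosamine to serine or threonine. C1GALT1, which needs its chaperone C1GALT1C1, then adds galactose to make core 1, and GCNT1 adds a branch to core 1 to make core 2. On N-glycans, mannosidases trim the chain that arrives from the endoplasmic reticulum and MGAT enzymes start its branches. Enzymes of the B4GALT, B3GALT and B3GNT families lengthen the chains of both kinds, and sialyltransferases and fucosyltransferases decorate them. Some members of these families act on other chains, such as B3GALT4, which makes ganglioside GM1. Acinar cells send a large flow of secretory protein through this pathway.

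Because Gcnt1 had the lowest knockout level relative to control among the tested members, the windows around its 3 annotated starts are shown here, from 250 bases before to 50 bases after each start, on the minus strand of mouse build GRCm38.p6, from RefSeq. Capitals mark the E-box letters CACCTG on either strand, so CAGGTG is the same motif read from the other strand. E-boxes with the letters CACCTG or CAGCTG and the letters TGGGAA were searched because the acinar factor PTF1A, with its partner RBPJL, is known to bind sites of these kinds.
Gcnt1 start 1, chr19:17372795-17373094: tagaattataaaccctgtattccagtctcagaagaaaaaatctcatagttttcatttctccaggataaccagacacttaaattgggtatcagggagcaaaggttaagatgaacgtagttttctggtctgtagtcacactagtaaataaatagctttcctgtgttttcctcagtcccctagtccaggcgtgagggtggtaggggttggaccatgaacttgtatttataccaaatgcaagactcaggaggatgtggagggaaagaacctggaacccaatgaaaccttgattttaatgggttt
Gcnt1 start 2, chr19:17356618-17356917: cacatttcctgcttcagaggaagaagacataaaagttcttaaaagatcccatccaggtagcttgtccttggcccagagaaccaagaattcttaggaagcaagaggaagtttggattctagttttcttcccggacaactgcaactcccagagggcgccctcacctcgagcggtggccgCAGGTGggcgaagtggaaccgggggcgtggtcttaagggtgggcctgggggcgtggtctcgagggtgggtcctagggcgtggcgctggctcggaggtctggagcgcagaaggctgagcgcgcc
Gcnt1 start 3, chr19:17339456-17339755: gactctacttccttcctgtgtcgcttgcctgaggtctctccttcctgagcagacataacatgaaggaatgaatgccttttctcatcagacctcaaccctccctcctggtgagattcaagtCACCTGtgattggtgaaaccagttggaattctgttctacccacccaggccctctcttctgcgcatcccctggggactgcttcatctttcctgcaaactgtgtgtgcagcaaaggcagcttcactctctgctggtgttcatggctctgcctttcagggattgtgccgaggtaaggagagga

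The windows at starts 2 and 3 each held 1 CACCTG match, the window at start 1 held none, and none of the 3 held CAGCTG or TGGGAA. The counts are per gene, so which start the cells used is not known. Over all 32851 RefSeq promoter windows of this length, 20.2% held CACCTG, 16.3% held CAGCTG and 25.6% held TGGGAA. Promoters were matched for 63 of the 87 member symbols, with 89 windows in all. Of these 89 windows, 16.9% held CACCTG, 16.9% held CAGCTG and 21.3% held TGGGAA, so none of the 3 motifs was more frequent by over 1 percentage point than in all promoters. The GC box GGGCGG stood in 56.2% of the member windows and in 35.7% of all windows, and CCAAT in 33.7% and 37.4%. The Gcnt1 windows had a GC content of 40.7%, 58.7% and 52.0% at starts 1, 2 and 3 and held no GC box. A match is a stretch of letters and not evidence of binding.

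Gene counts ran from 31019500 to 34041901 per library. Digestive enzyme genes took 72.8% to 78% of them, so each glycan enzyme is read from a small remainder of the library. Levels are given in CPM, a gene's count relative to the TMM-scaled size of its library. The TMM factors were 0.785 to 1.02 in control and 1.12 to 1.19 in the knockout, and scaling by library totals instead moved the median log2 fold change of all tested genes from 0.02 to 0.43. Directions below are therefore relative to the other genes of the same library. Levels of different genes are set side by side only in CPM per kilobase of exon. The targeted gene Trip12 had 29.0, 22.4 and 26.4 CPM in the control libraries 1 to 3 and 14.4, 14.7 and 13 CPM in the knockout libraries, with no overlap. Its log2 fold change was -0.89 ± 0.14 (SE, adjusted p = 0.0256), which leaves 54.1% of the control mean. The labels do not name the deleted exons, and counts per gene cannot separate them. The summed level of the 5 acinar markers was 106900 to 156300 CPM. Nearly all of it came from Cela1 and Cpa1, which were high in every library, while Ptf1a had 5.44 to 14.05 CPM. Control libraries 2 and 3 came from females by their Xist counts (2118 and 2440), while control library 1 and all 3 knockout libraries had 3 to 5 Xist counts and 1205 to 1784 counts of Y-linked genes. Sex is thus partly confounded with genotype, and values of a fit with sex as a covariate, which rests on 1 male control library, are given below for the genes called and for several others. For Trip12 that fit gave -1.05 (adjusted p = 0.0941).

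Of the 88 members, 57 passed the filter on low counts and were tested, 31 did not pass, and 7 of those 31 had no count in any library. In control, 42 members had a mean of at least 1 CPM. Calls were made with edgeR's quasi-likelihood test, at a Benjamini-Hochberg adjusted p under 0.05 over all 13115 tested genes. Gcnt1 and Galnt1 were called, both lower in the knockout, which is 2 of 57 tested members. Over all tested genes 0.945% were called, and 0.480% were called lower. With the replicate number as a block, a pairing that the labels do not state, Fut8 was also called lower. This made 3 of 57 members beside 5.99% of all tested genes. At an unadjusted p under 0.05 there were 10 members, 7 lower and 3 higher, beside 16.7% of all tested genes. The control and knockout libraries did not overlap in 14 members, 7 lower and 7 higher, beside 22.9% of all tested genes. The median log2 fold change of the 57 members was 0.07, and that of all tested genes was 0.02. The counts at the unadjusted p and of members without overlap lie near the shares of all genes, and nothing about the set is read from them. Under scaling by library totals 9 members were called, 7 higher and 2 lower, and Gcnt1 and Galnt1 were the 2 lower ones.

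**Figure D1:**
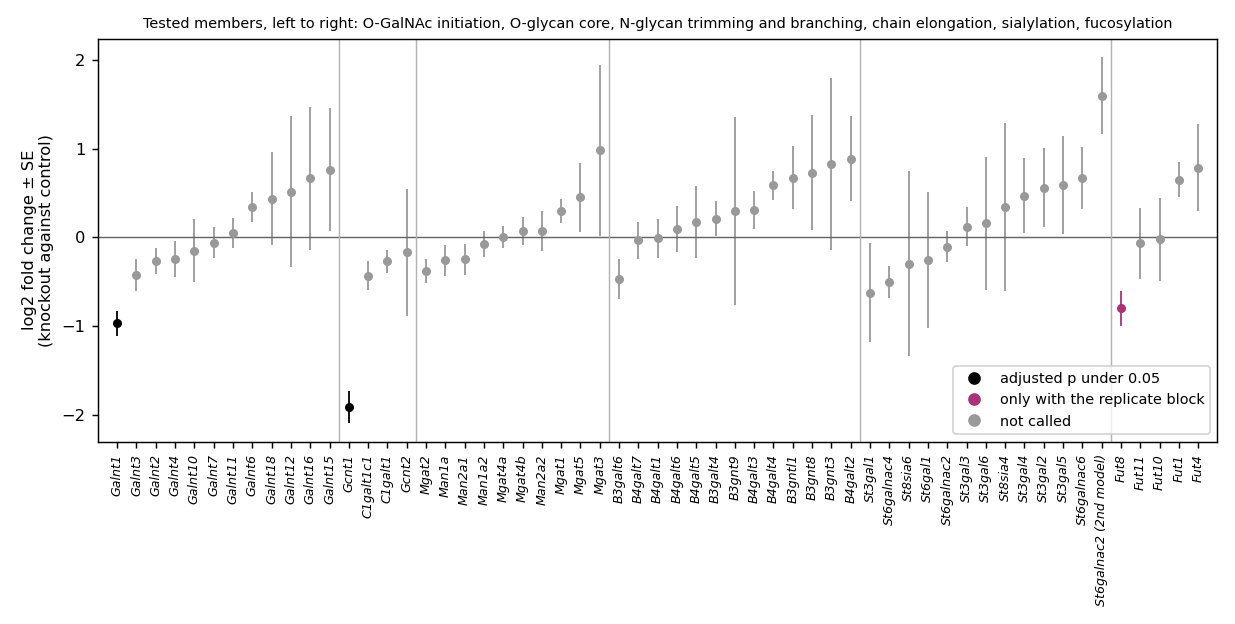
Log2 fold change (knockout against control, ± SE of the edgeR fit) of the 57 tested members, in role order and sorted within each role. Gcnt1 at -1.92 and Galnt1 at -0.97 are the members called without the block, and Fut8 at -0.80 is called only with it.

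In control libraries the Golgi enzyme messages were dominated by a few genes. Galnt2 alone made up 11.9% of the summed CPM per kilobase of all members, and Galnt2, Man2a1, Galnt1, Mgat2 and Mgat4b together made up 41.9%. The 20 highest members made up 86.0%. By role, the N-glycan trimming and branching enzymes held 35.2% of the sum, the O-GalNAc initiating enzymes 28.8%, the O-glycan core enzymes 11.2%, the chain elongating enzymes 10.8%, the sialyltransferases 9.5% and the fucosyltransferases 4.61%. The summed level of all members was 142.4, 152.3 and 155.5 CPM per kilobase in the control libraries and 130.9, 139.9 and 136.5 in the knockout libraries. All 3 knockout sums lay below all 3 control sums with TMM scaling, and all lay above them with library totals (129.9 ± 13.1 in control and 156.9 ± 1.16 in the knockout, SD, n = 3), so the sum gives no direction free of the scaling. Every level here is from a preparation of many cells, in which fewer cells of a type and less RNA per cell cannot be told apart.

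**Figure D2:**
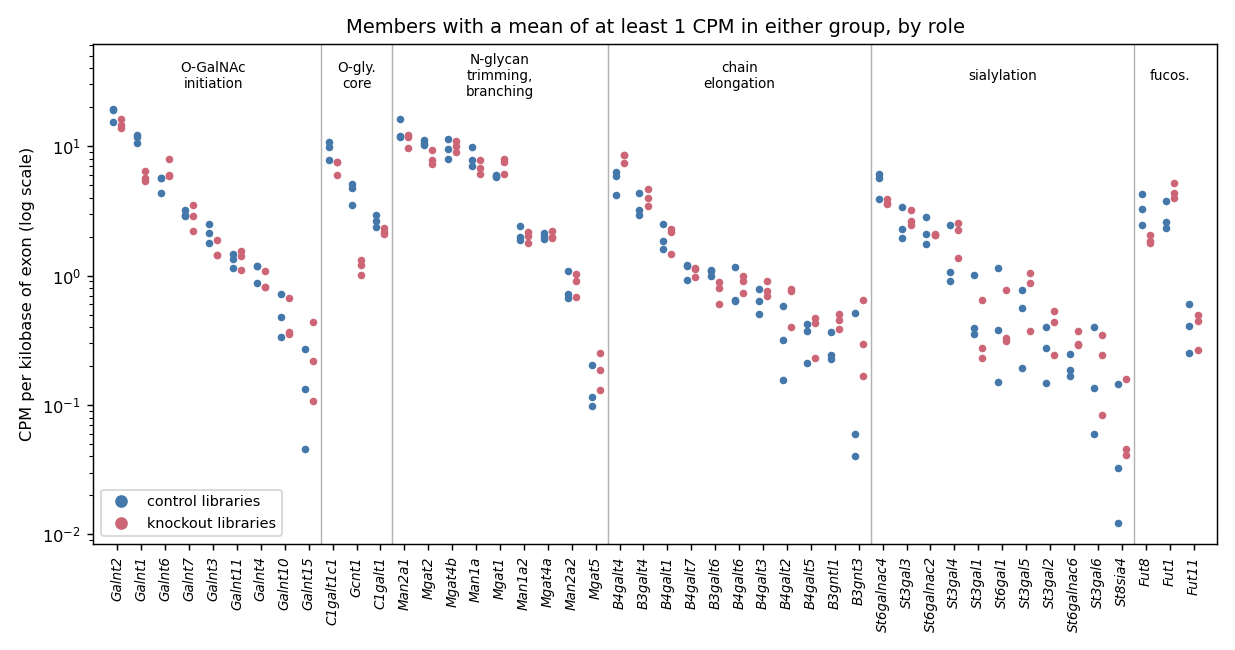
CPM per kilobase of exon on a log scale for every member with a mean of at least 1 CPM in either group, ordered by role and control level, with 1 point per library. Gcnt1 has its 3 knockout points well below its 3 control points, while most members have overlapping points.

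The O-GalNAc initiating enzymes had 17 members, of which 12 were tested and 1, Galnt1, fell. Galnt1 encodes one of the broadly expressed transferases that start mucin-type O-glycans. Its level was 58.0, 67.6 and 64.7 CPM in the control libraries and 29.9, 35.7 and 31.5 CPM in the knockout libraries. The groups did not overlap and the lowest control library stood well above the highest knockout library. The mean was 63.5 ± 4.94 CPM in control (SD, n = 3) against 32.4 ± 2.97 CPM in the knockout. The fitted log2 fold change was -0.97 ± 0.14 (SE, edgeR, adjusted p = 0.0193). In the order of members by CPM per kilobase Galnt1 moved from place 3 in control to place 10 in the knockout. With sex as a covariate the log2 fold change was -0.84 and the call was lost (adjusted p = 0.172). The call was also lost without control library 2 or 3 or any 1 of the knockout libraries (adjusted p from 0.0505 to 0.126).

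No other initiating enzyme was called. Galnt2, the most abundant member, whose reads can also belong to an overlapping readthrough gene model, had 65.9, 80.9 and 83.0 CPM in control, against 59.0, 68.9 and 62.8 CPM in the knockout, with overlap (log2 fold change -0.27 ± 0.15, adjusted p = 0.416, and -0.05 as log2 fold change with sex as a covariate). Galnt3, a related initiating enzyme, had 7.78, 9.41 and 10.9 CPM in control, against 6.35, 6.34 and 8.23 CPM in the knockout (-0.42 ± 0.18, adjusted p = 0.277, and -0.16 as log2 fold change with sex as a covariate). Galnt6 had 16.9, 22.0 and 21.9 CPM in control, against 23.3, 30.8 and 22.8 CPM in the knockout, higher without overlap but not called (0.34, adjusted p = 0.364). Galnt6 was picked out after its values were seen. The makeup of the Galnt pool therefore differed between the groups within each library, a measure that does not depend on library scaling. Galnt1 made up 27.0%, 27.0% and 25.9% of the summed Galnt level per kilobase in the control libraries and 16.5%, 16.8% and 16.4% in the knockout libraries. The share of Galnt2 was 41.3% ± 1.69 (SD, n = 3) and 42.0% ± 0.146, with overlap. The share of Galnt6 was 12.1% ± 0.782 and 18.6% ± 1.91, without overlap. Shares are parts of 1 sum, so this rise is not separate from the fall of Galnt1. The ratio of Galnt6 to Galnt1, per kilobase, was 0.414, 0.464 and 0.483 in control and 1.11, 1.23 and 1.03 in the knockout, so that Galnt6 passed Galnt1 in all 3 knockout libraries. The lack of overlap in this ratio follows from the levels of both genes and adds nothing to them.

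The O-glycan core enzymes had 8 members, of which 4 were tested, and 1, Gcnt1, fell. Gcnt1 encodes the transferase that turns core 1 into the branched core 2, the base on which longer O-glycan chains are built. It had 871, 716 and 558 counts in the control libraries and 217, 266 and 261 in the knockout libraries. In CPM these were 27.4, 29.4 and 20.3 in control and 5.82, 7.59 and 7.0 in the knockout. The lowest control library stood well above the highest knockout library. The mean went from 25.7 ± 4.8 CPM in control (SD, n = 3) down to 6.80 ± 0.905 CPM in the knockout, which is 26.5% of control. The log2 fold change was -1.92 ± 0.18 (SE, edgeR, adjusted p = 0.00243). With the block it was -1.91 and with sex as a covariate -2.01 (adjusted p = 0.0178). Control library 1, the male control, had 27.4 CPM beside 5.82 to 7.59 CPM in the male knockout libraries. Gcnt1 had place 26 by size among the 63 genes called lower and place 13 by p-value among all tested genes. In the order of members by CPM per kilobase it moved from place 12 to place 25.

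The other tested core enzymes were not called. The summed level of the core enzymes was 15.5, 18.4 and 16.4 CPM per kilobase in control and 9.40, 11.3 and 11.0 in the knockout, without overlap with TMM scaling and with library totals. Within that sum Gcnt1 went from a mean of 4.46 to 1.18 CPM per kilobase and C1galt1c1 from 9.49 to 7.02. The fall of the sum is therefore not separate from that of Gcnt1. C1galt1, the core 1 transferase whose product GCNT1 uses, had 16.2, 14.3 and 17.9 CPM in control, against 12.8, 14.2 and 13.1 CPM in the knockout (log2 fold change -0.27, adjusted p = 0.344). C1galt1c1, the chaperone that C1GALT1 needs to fold, had 11.3, 15.7 and 14.2 CPM in control, against 8.71, 10.9 and 10.9 CPM in the knockout (-0.43 ± 0.16, adjusted p = 0.240). Neither overlapped between the groups and neither was called. The log2 fold change of C1galt1c1 was -0.15 with sex as a covariate and 0.00 with library totals. The ratio of Gcnt1 to C1galt1, per kilobase, was 1.79, 2.17 and 1.20 in control and 0.479, 0.567 and 0.563 in the knockout. The branching enzyme's message was thus above that of the core 1 transferase in every control library and below it in every knockout library. The lack of overlap in this ratio follows from the levels of both genes and restates the fall for which Gcnt1 was singled out. The ratio of C1galt1c1 to C1galt1 overlapped, at 3.63 ± 0.876 (SD, n = 3) and 3.19 ± 0.322.

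The remaining Gcnt genes were low in both groups. Gcnt2, which makes the I branch of poly-N-acetyllactosamine chains, had 1.64, 0.534 and 0.436 CPM in control, against 1.5, 0.514 and 0.322 CPM in the knockout, and its library 1 was the highest in both groups. The log2 fold change of Gcnt2 was -0.17 ± 0.72, and -1.07 with sex as a covariate, neither of them called. Gcnt3, a mucosal core 2 and core 4 branching enzyme, had 5, 0 and 1 counts in control and 3, 0 and 0 in the knockout. Gcnt4 had 1, 0 and 2 counts in control and 3, 5 and 6 in the knockout, and Gcnt7 had 0, 0 and 2 in control and 2, 0 and 0 in the knockout. B3gnt6, which makes core 3, had 1 count in 1 knockout library and none elsewhere. None of Gcnt3, Gcnt4, Gcnt7 and B3gnt6 passed the filter. Among the Gcnt genes the core 2 message of these preparations was therefore read from Gcnt1 in both groups.

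**Figure D3:**
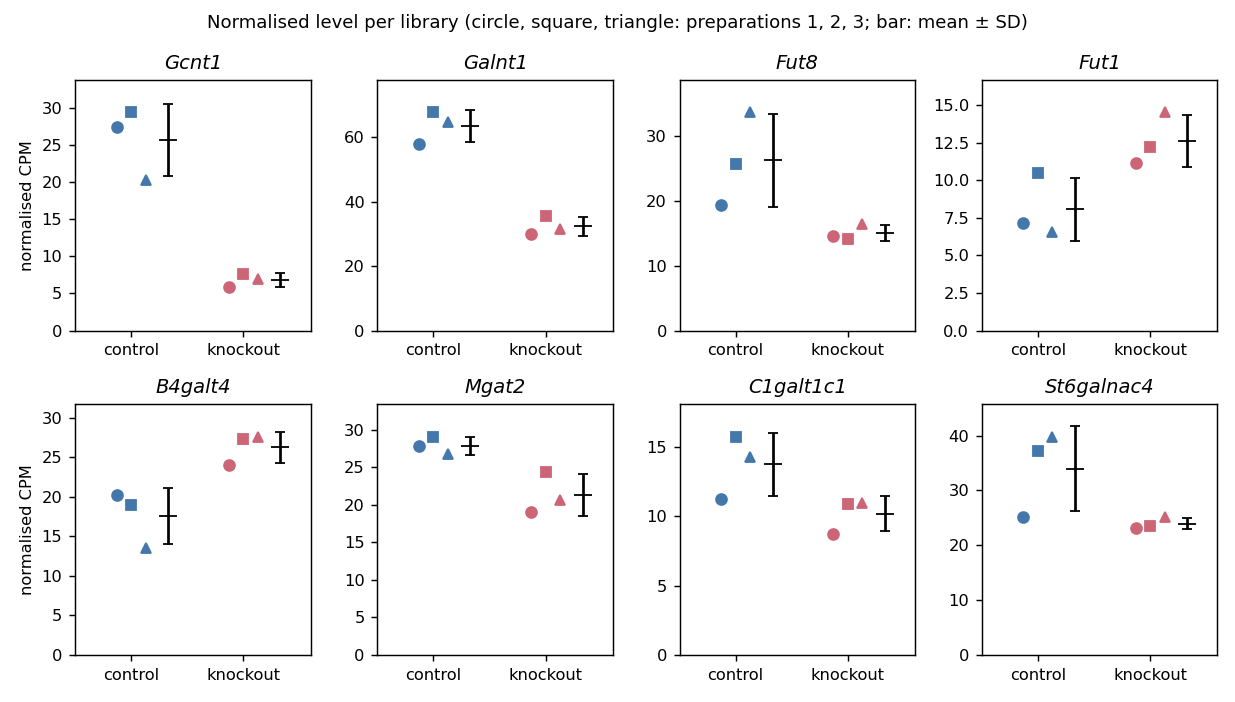
Normalised CPM in every library (y axis from 0) for 8 members: Gcnt1, Galnt1, Fut8, Fut1, B4galt4, Mgat2, C1galt1c1 and St6galnac4. Symbols are preparations 1 to 3, and bars are mean ± SD of 3 libraries. In all but St6galnac4 the 3 knockout libraries lie on 1 side of the 3 control libraries.

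The N-glycan trimming and branching enzymes had 14 members, with 10 tested and none called (smallest adjusted p = 0.211, 1 at an unadjusted p under 0.05). Their summed level was 52.8 ± 3.94 CPM per kilobase in control (SD, n = 3) against 48.7 ± 1.78 in the knockout, and with library totals it was higher in the knockout (45.6 ± 4.14 and 56.3 ± 0.320). Mgat2, which starts the second branch and so commits a chain to the complex type, had 27.8, 29.0 and 26.7 CPM in control, against 19.0, 24.4 and 20.6 CPM in the knockout. It was lower without overlap and was not called (log2 fold change -0.38 ± 0.14, adjusted p = 0.211, and 0.02 as log2 fold change with library totals). Mgat1, which starts the first branch and was picked out after its values were seen, had 28.2, 27.4 and 27.6 CPM in control, against 37.4, 29.0 and 35.6 CPM in the knockout. It was higher without overlap and was not called (0.29, adjusted p = 0.325). The ratio of Mgat1 to Mgat2, per kilobase, was 0.562, 0.520 and 0.570 in control and 1.09, 0.656 and 0.954 in the knockout. Its lack of overlap follows from the levels of both genes and adds nothing to them. Man2a1, the Golgi mannosidase that acts between MGAT1 and MGAT2, had 84.7, 87.1 and 116.3 CPM in control, against 69.3, 84.7 and 88.4 CPM in the knockout, with overlap (-0.25 ± 0.18, adjusted p = 0.538, and -0.07 as log2 fold change with sex as a covariate).

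The chain elongating enzymes had 20 members, with 13 tested and none called. Of the 13 tested, 10 had a positive log2 fold change, and the median was 0.29, beside 0.02 for all tested genes. With sex as a covariate B4galt6, B4galt5, B3gnt3 and B3gnt9 turned negative (-0.41, -0.16, -0.47 and -1.05) and the other positive ones stayed above 0. Several of the 10 had levels near or under 1 CPM, and nothing about the role is read from the count. B4galt4, a galactosyltransferase that extends N-acetylglucosamine ends, was the highest of them per kilobase and had 20.2, 18.9 and 13.5 CPM in control, against 24.0, 27.2 and 27.6 CPM in the knockout. The groups did not overlap, and the log2 fold change was 0.58 ± 0.17 (adjusted p = 0.142, and 0.0502 with the block). With sex as a covariate the log2 fold change of B4galt4 was 0.38. The ratio of B4galt4 to B4galt1, per kilobase, was 2.49, 3.21 and 2.60 in control and 3.27, 3.92 and 5.81 in the knockout. The groups were separated only narrowly, by 3.21 against 3.27. The share of B4galt4 in the summed B4galt level was 50.8% ± 3.24 (SD, n = 3) in control and 58.8% ± 4.97 in the knockout, with overlap. B3galt4, the galactosyltransferase that makes ganglioside GM1, had 4.66, 5.05 and 6.83 CPM in control, against 5.41, 6.31 and 7.38 CPM in the knockout, with overlap (0.21, adjusted p = 0.668). The summed level of the role was 18.3, 15.6 and 14.6 CPM per kilobase in control and between 19.8 and 20.2 in the knockout, higher without overlap. The highest control sum was that of the male control library. The control libraries varied more than the knockout libraries here, with an SD of 1.93 beside 0.209.

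The sialyltransferases had 21 members, with 13 tested and none called, and their summed level was 14.3 ± 1.22 CPM per kilobase (SD, n = 3) in control and 14.0 ± 1.43 in the knockout. With library totals the sum was 12.4 ± 2.45 in control and 16.2 ± 2.15 in the knockout, with overlap. St6galnac4, which adds a further sialic acid to sialylated core 1, was the highest sialyltransferase per kilobase. It had 25.1, 37.1 and 39.8 CPM in control, against 23.1, 23.6 and 25.1 CPM in the knockout, and control library 1 lay at the top of the knockout range (log2 fold change -0.51 ± 0.18, adjusted p = 0.212). The high libraries were the female controls, and with sex as a covariate the log2 fold change was -0.07. St3gal3, which caps galactose ends with sialic acid, had 5.42, 6.37 and 9.38 CPM in control, against 6.81, 8.85 and 7.35 CPM in the knockout, with overlap (0.12, adjusted p = 0.849). The highest log2 fold change among the tested members, 1.6 (adjusted p = 0.130), belonged to the lower of the overlapping St6galnac2 models, which stayed near or under 1 CPM. Reads shared by the pair of models cannot be assigned, so that value is uncertain.

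The fucosyltransferases had 8 members, with 5 tested. Fut8 adds the core fucose of N-glycans. It had 19.4, 25.7 and 33.6 CPM in control, against 14.6, 14.1 and 16.4 CPM in the knockout, without overlap, and its control libraries were far more spread (SD 7.14) than its knockout libraries (SD 1.17). The log2 fold change was -0.80 ± 0.20 (SE, edgeR, adjusted p = 0.102), and with the block it was -0.77 and called (adjusted p = 0.0134). With sex as a covariate it was -0.36 (adjusted p = 0.560), and the male control library had the lowest of the 3 control levels. Fut1, which makes the H antigen by adding fucose to galactose ends, had 7.18, 10.5 and 6.54 CPM in control, against 11.2, 12.2 and 14.5 CPM in the knockout. It was higher without overlap and was not called (0.65 ± 0.20, adjusted p = 0.157, and 0.0523 with the block). The ratio of Fut1 to Fut8, per kilobase, was 1.05, 1.16 and 0.552 in control and 2.16, 2.45 and 2.52 in the knockout. That this ratio did not overlap follows from the levels of both genes. Fut8 made up 40.9%, 43.6% and 58.5% of the summed Fut level per kilobase in control and 27.7%, 25.8% and 26.3% in the knockout, without overlap. The summed Fut level itself was 6.91 ± 0.795 CPM per kilobase in control and 7.17 ± 0.620 in the knockout, with overlap. With library totals it was 5.94 ± 0.131 in control and 8.29 ± 0.733 in the knockout, higher without overlap. Fut8 shares a short exonic stretch with a long noncoding RNA on the other strand, whose reads the unstranded counts cannot separate.

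**Figure D4:**
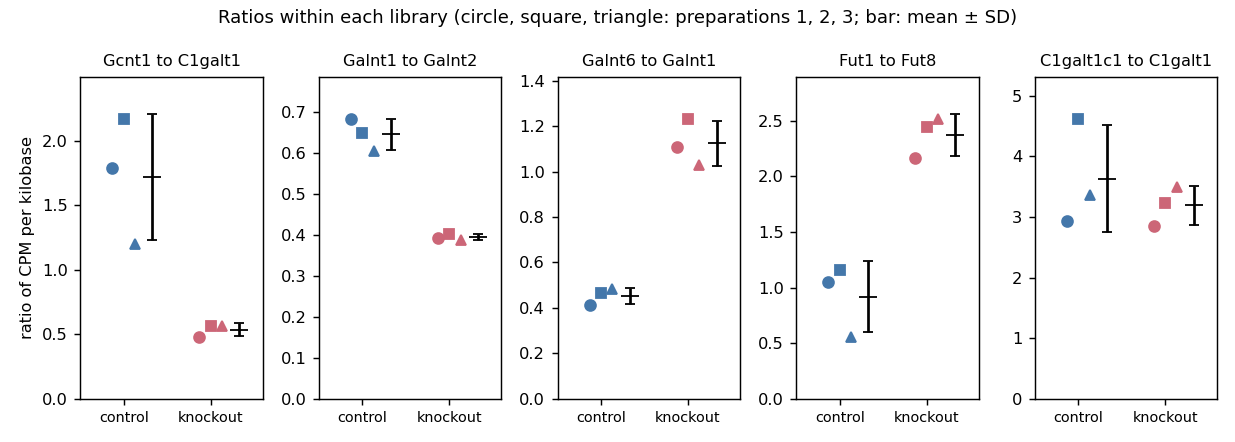
Ratios of CPM per kilobase within each library for 5 pairs of members (y axes from 0), with preparations 1 to 3 as symbols and mean ± SD of 3 libraries as bars. The first 4 pairs do not overlap between control and knockout, and the ratio of C1galt1c1 to C1galt1 does. For Galnt6 to Galnt1 and Fut1 to Fut8 this follows from the levels of the genes, which differ without overlap in opposite directions. For Gcnt1 to C1galt1 the lack of overlap restates the lower level of Gcnt1, for which that gene was singled out.

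A subset of members varied with the preparation number in both groups. In both groups library 1 was at least 2-fold above the mean of libraries 2 and 3 for 10 of the 57 tested members (17.5%, beside 5.94% of all tested genes). These were Galnt15, Galnt16, Gcnt2, B3gnt3, B3gnt8, St3gal1, St6gal1, St3gal6, St8sia6 and St8sia4, picked out after their values were seen. St6gal1, the main sialyltransferase of B cell and plasma glycoproteins, had 5.67, 0.739 and 1.85 CPM in control, against 3.81, 1.54 and 1.61 CPM in the knockout. St3gal1, which sialylates core 1, had 6.96, 2.71 and 2.44 CPM in control, against 4.42, 1.57 and 1.88 CPM in the knockout. St8sia4, a polysialyltransferase, had 2.93, 0.247 and 0.654 CPM in control, against 3.16, 0.914 and 0.832 CPM in the knockout. That library 1 was the highest in both groups for each of these follows from how they were picked out. Their genotype differences had adjusted p-values of 0.651 to 0.915. In control, library 1 was also the only male library, so preparation number and sex cannot be told apart there. The summed level of the 8 leukocyte markers was also highest in library 1 of each group, at 62.2, 9.61 and 6.43 CPM in control, against 36.8, 6.71 and 17.6 CPM in the knockout. Adgre1, Cd68 and C1qa, markers of macrophages named after their values were seen, were highest in library 3 of the knockout. The 8 stromal and endothelial markers had summed levels of 140.1, 32.0 and 48.7 CPM in control, against 153.6, 37.7 and 114.6 CPM in the knockout. No marker in these lists was at 0 in all libraries, and their part in the levels of the 10 members was not tested. Gcnt1, Galnt1 and Fut8 did not have this pattern: library 1 of control was 1.10, 0.876 and 0.653 times the mean of libraries 2 and 3.

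**Figure D5:**
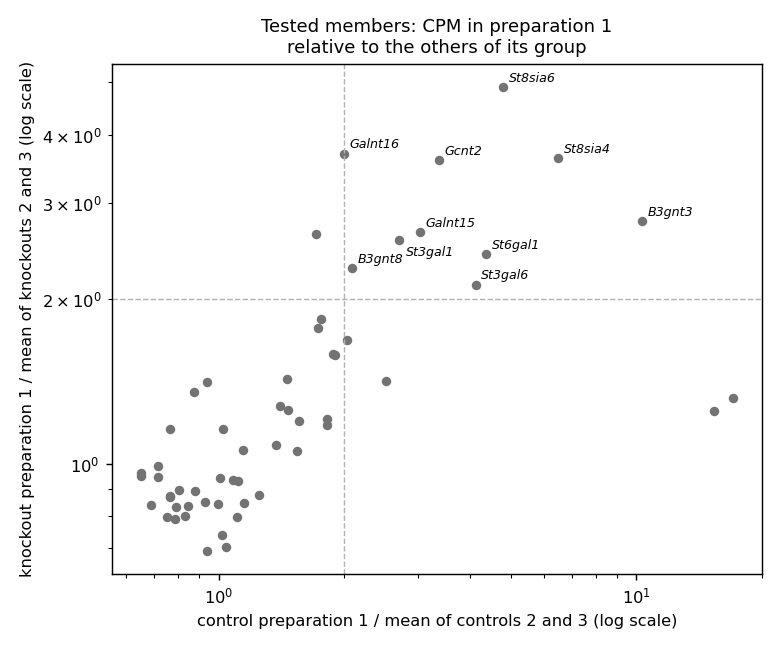
For each tested member with a value on both log axes, the CPM of library 1 divided by the mean of libraries 2 and 3, in control (x) and in the knockout (y), with dashed lines at 2. The 10 named members lie above 2 in both groups.

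Genes around the enzymes in the same pathway were read by the same test, in lists chosen by function. Over all tested genes 0.945% were called. Of 19 tested genes of sugar nucleotide synthesis none was called (1 higher and 3 lower at an unadjusted p under 0.05), and their median log2 fold change was -0.09. The 13 Golgi sugar nucleotide transporters also had none called (1 higher and 2 lower at an unadjusted p under 0.05), with a median of -0.11. Of 20 tested other Golgi glycan enzymes 1 was called. This was Gal3st1, the sulfotransferase that makes sulfatide, with 3.24, 4.23 and 4.29 CPM in control, against 1.53, 1.48 and 1.31 CPM in the knockout (log2 fold change -1.44 ± 0.23, edgeR, adjusted p = 0.0292). Its groups did not overlap. With sex as a covariate its log2 fold change was -1.17 and the call was lost (adjusted p = 0.246).

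The 20 genes of the Golgi retention and tether machinery, which hold glycosyltransferases in their cisternae, had a median log2 fold change of -0.23, with none called. At an unadjusted p under 0.05 there were 5 lower and 0 higher, and the 5, named after their values were seen, were Golph3, Golph3l, Gorasp2, Cog5 and Cog6. Of all tested genes 16.7% passed that unadjusted threshold, and nothing is read from the counts of these lists. Of the mucins and O-glycan acceptors 4 were tested and none was called without the block. Muc1, the membrane mucin that carries many O-glycans, had 72.8, 102.3 and 125.6 CPM in control, against 61.0, 58.6 and 59.0 CPM in the knockout. The groups did not overlap (-0.75 ± 0.20, adjusted p = 0.123), and with the block the call was made (-0.72, adjusted p = 0.0355). With sex as a covariate its log2 fold change was -0.29.

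Cell type markers were read beside these values. Rbpjl, the acinar partner of PTF1A, had 182.7, 279.6 and 179.6 CPM in control, against 485.6, 658.1 and 369.8 CPM in the knockout. It was called higher only with the block (adjusted p = 0.00203, and 0.0685 without it). Ptf1a had overlapping groups and was called lower once the block was included (-0.54 on the log2 scale, adjusted p = 0.0460). With sex as a covariate the Ptf1a value was -0.02 (adjusted p = 0.988). Among the duct markers Spp1, Krt7 and Epcam were called higher and Krt19 lower with the block, and among the leukocyte markers C1qa and Adgre1 were called higher with it. The 7 tested leukocyte markers went both ways, with a median log2 fold change of -0.51 without the block. Adgre1, C1qa and Cd68 were at 2.15, 1.155 and 1.145, while Ptprc, Cd79a, Laptm5 and Cd52 were at -1.09, -0.98, -0.55 and -0.51. No gene of the marker lists was called without the block, and none of the 8 called with it was called with sex as a covariate in the fit without the block (smallest adjusted p = 0.292, for Rbpjl). The log2 fold change of Krt7 was 1.08, and 0.36 with that covariate. The summed duct marker level was 129.2, 109.4 and 117.4 CPM in control, against 215.0, 130.5 and 224.1 CPM in the knockout. Spp1 was the largest part of it, at 69.0, 59.9 and 58.0 CPM in control, against 150.7, 78.1 and 163.8 CPM in the knockout. Spp1 and Epcam were higher without overlap, Krt19 and Cftr lower without overlap (log2 fold change -0.81 and -1.33), and the other duct markers overlapped. The sum is therefore no measure of the duct markers as a group. The summed acinar marker level was 113300, 147900 and 156300 CPM in control, against 106900, 112500 and 108100 CPM in the knockout. Cela1 and Cpa1 made up nearly all of it. Cela1 was lower without overlap and Rbpjl higher without overlap, so this sum is no measure of the acinar markers as a group. The summed islet marker level was 396.2, 413.3 and 332.3 CPM in control, against 852.2, 594.5 and 227.0 CPM in the knockout, and knockout libraries 1 and 2 lay above the control range while knockout library 3 lay below it. None of the 6 islet markers was called with or without the block. The part of these differences in the Gcnt1, Galnt1 and Fut8 values was not tested.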

How the data were processed

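Total RNA from 6 mouse acinar preparations was enriched for poly-A messenger RNA and primed with random hexamers, per the labels' protocols. The authors deposited raw whole-number read counts per Ensembl gene for each library, unstranded and by strand. STAR 2.7.10a and build GRCm39 are named in the submitters' processing notes. The unstranded counts were used (the forward strand held 50.1% to 50.3%). The 4 rows outside genes, 36.9% to 45.7% of all reads, stayed out of sizes and tests. Of 55414 identifiers 94.1% were found in GENCODE M21 (GRCm38), used for symbols, exonic length and overlaps, with no gene coordinates.

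All genes were tested with edgeR 4.0.16 in R 4.3.3 (filterByExpr, TMM, robust quasi-likelihood F test, Benjamini-Hochberg adjustment). A gene was called at an adjusted p-value under 0.05, and its SE is the log2 fold change divided by the root of F. The script was tested on simulated data. Alternatives used limma 3.58.1, DESeq2 1.42.0, other scalings, filters, strands, a sex covariate, a replicate block and each library left out. Same-numbered libraries deviated together (correlations 0.630, 0.455 and 0.285, other pairs -0.496 to 0.210), so the numbers were taken as pairs in the fit with the block. The labels do not say that same-numbered libraries were handled together. The pairing was thus chosen from these same data, and calls made only with the block depend on it. No 2 libraries agreed within sampling noise. The labels call the replicates biological without naming animals, so p-values measure the spread between these preparations.

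The members and lists were chosen with earlier results of these data known. Members were named if called with or without the block, if at an unadjusted p under 0.05 with a mean of at least 1 CPM, if among the 2 highest of their role per kilobase in control, or if a Gcnt gene. List genes were named if called with or without the block. Others were picked out after their values were seen.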

Additional observations from a re-analysis of the deposited data

How the results depend on the processing

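Gcnt1 stayed called and lower under all 17 alternatives (log2 fold change from -2.06 to -1.52, adjusted p at most 0.0329), and Galnt1 stayed lower in all and called in 11. The number of members called was 2, and it was 3 with the replicate block, 9 with library totals (7 higher, 2 lower), 5 without a filter, 1 with a sex covariate, and 1 to 5 with each library left out (5 without control 1, and Gcnt1 alone without any other). The number of genes called was 124 (61 higher, 63 lower). It was 785 with the replicate block, 1519 with library totals (1442 higher, 77 lower), 593 by the DESeq2 Wald test, 850 without a filter, 210 when each library had to hold 10 counts, 21 with a sex covariate, and 20 to 461 with each library left out (20 without control 2, 461 without control 1). Library totals shifted the median of all genes to 0.43. Under them the log2 fold change was 0.17 for Man2a1, 0.02 for Mgat2, 0.16 for Galnt2, 0.01 for Galnt3 and 0.17 for Gcnt2, all below that median. Gcnt2 was also above 0 with forward-strand counts (0.04) and reverse-strand counts (0.16), and lay between -1.06 and 0.66 with each library left out, as St3gal3 did between -0.06 and 0.38. Trip12 was no longer called with library totals (-0.49), with a sex covariate (-1.05) and in 5 of the 6 fits with a library left out (-0.98 to -0.84). It stayed called without control 1 (-0.82). Fut8 was called in 5 of 17 alternatives. Except where a fit had fewer samples or other genes tested, the cause was not tested. The sex covariate rests on 1 male control library. At the depth of these libraries, members under about 1 CPM are read from few counts, and intervals between libraries there are wide.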
